A study of Mus musculus with 2 samples.

Results

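Chondroitin and dermatan sulfate, heparan sulfate, hyaluronan, mucin-type and other glycans are made by the enzymes described here, which start, lengthen, branch, sulfate, sialylate or fucosylate sugar chains. The members were selected by gene symbol, with the log2 ratios of these arrays already known, since *Chst11* was among the largest rises and gave the set its lead. They are the genes with a probe set of their own on the array whose symbol has the stem Chst, Gcnt, Hs2st, Hs3st, Hs6st, Ndst, Xylt, Csgalnact, Chsy, Galnt, B3gnt, B3galt, B4galt, St3gal, St6gal, St8sia or Fut followed by a digit, together with *Has1*, *Has2*, *Has3*, *Ext1*, *Ext2* and *Ust*. By this rule there were 101 genes of 18193 measured, with 199 probe sets. One entry, *Fut4-ps1*, is a pseudogene and no enzyme.

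Primary ventricular cardiomyocytes of C57BL6/J mice 2 days after birth (mNVCM) were hybridised to 2 Affymetrix arrays, 1 per condition. Both cultures spent 1 h in medium with low serum and both received 1 μM doxorubicin (Dox), a tumour drug of the anthracycline class that damages DNA and is toxic to the heart. In the group hAFS-CMHypo + Dox the cells had first been held for 3 h with the secretome of human amniotic fluid stem cells (hAFS), and in the group Dox they had not. The comparison asks which genes the pre-incubation altered in cells then exposed to Dox. That the stem cells were hypoxic and pooled from several donors is taken from the study's methods. The protocol in the labels gives 6 h of Dox for both cultures, but the treatment labels of the samples give 6 h for hAFS-CMHypo + Dox and 21 h for Dox, so a difference in hours and the pre-incubation cannot be told apart. The cells were not purified after enzymatic digestion, as far as the methods say, and fewer cells of a type cannot be told apart from less RNA per cell in such a culture. Without replicates there is no test, and all values below describe these 2 arrays, whose number limits the precision.

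Values are log2 expression from RMA, the summary of each probe set that the authors computed with quantile normalization. A log2 ratio is the value of hAFS-CMHypo + Dox minus that of Dox, taken from the gene's brightest probe set, the one with the highest mean over both arrays. The array median, over all values of both arrays, was a log2 value of 5.10 and the 25th percentile was 3.80. Signal under the latter may be background. The SD among the log2 ratios that probe sets of a shared gene gave was 0.20 over 3198 genes. These are the genes with 2 or more probe sets, all with a mean at or above the array median. This probe-set SD is used below as the error of a log2 ratio, also for members with lower signal, for which it may be too small. It holds no variation between cultures. Over the 56 members with 2 or more probe sets, at any level of signal, the SD was 0.33, and it was 0.24 without *Chst11* and *Gcnt2*. The cardiomyocyte markers *Myh6* and *Tnnt2* had log2 values of 14.37 and 14.73 for hAFS-CMHypo + Dox and of 14.49 and 14.75 for Dox.

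Glycosaminoglycans are long sugar chains. Those of chondroitin, dermatan and heparan sulfate are built on core proteins from a short linker and are then sulfated, and the pattern of sulfate decides which growth factors, chemokines and matrix proteins they bind. Hyaluronan is made at the plasma membrane, without a core protein and without sulfate. In the heart these chains lie in the matrix and on the surface of myocytes, fibroblasts and vessels. Mucin-type O-glycans and the outer chains of N-glycans and glycolipids are lengthened, branched and capped by the other families, and some capped and sulfated chains are ligands of selectins, which capture leukocytes.

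*Chst11*, *Gcnt2* and *Has2* were the members with a log2 ratio of 1 or more, that is 2-fold, which is 3 of 101. Over all genes, 0.506% were higher by 2-fold or more. No member was lower by 2-fold, against 0.214% of all genes. As *Chst11* and *Gcnt2* were known to be among the largest rises when the set was made, their count is a description of the choice and nothing is read from it. The member nearest to the threshold from below was *Galnt4*, with 0.80. Of the 199 member probe sets, 7 reached 2-fold upwards and none downwards, against 0.412% and 0.269% of all probe sets with 1 gene.

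*Chst11* codes for a sulfotransferase of the Golgi that adds sulfate to the GalNAc units of chondroitin. Its log2 value was 8.38 with the secretome and Dox and 6.34 with Dox alone, a log2 ratio of 2.03 or 4.10-fold. It was in place 10 among the rises of all genes. The other probe set of *Chst11* had low values, 4.82 and 4.33, and a log2 ratio of 0.50. Both probe sets were thus higher with hAFS-CMHypo, by sizes that differed by over the probe-set SD, and the mean of both was 1.27.

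*Gcnt2* codes for the enzyme that makes I branches, the GlcNAc side arms on chains of repeated lactosamine. Its log2 value was 9.67 for hAFS-CMHypo + Dox and 7.76 for Dox, which is a log2 ratio of 1.91 or 3.77-fold, in place 13 among the rises. Of its 8 probe sets, 4 were higher by 2-fold or more. The other 3 of these had log2 values of 6.48 against 4.80, 7.37 against 5.80 and 5.78 against 4.50, with log2 ratios of 1.68, 1.57 and 1.27. The remaining 4 had Dox values of 3.62, 5.02, 4.05 and 3.11 and log2 ratios of 0.47, 0.40, 0.24 and -0.00. The ranges of the Dox values overlapped, since the 5.02 lay above 2 of the 4 probe sets past 2-fold. With the mean of all 8, *Gcnt2* had a log2 ratio of 0.94 and was no longer past 2-fold.

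*Has2* codes for a hyaluronan synthase, the one needed for the cushions of the embryonic heart. Its log2 value was 5.93 for hAFS-CMHypo + Dox and 4.55 for Dox, which is a log2 ratio of 1.38 or 2.59-fold, in place 36 among the rises. Its second probe set had 5.22 against 4.10 and a log2 ratio of 1.12. Both probe sets were past 2-fold, with Dox values under the array median and above the 25th percentile.

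**Figure D1:**
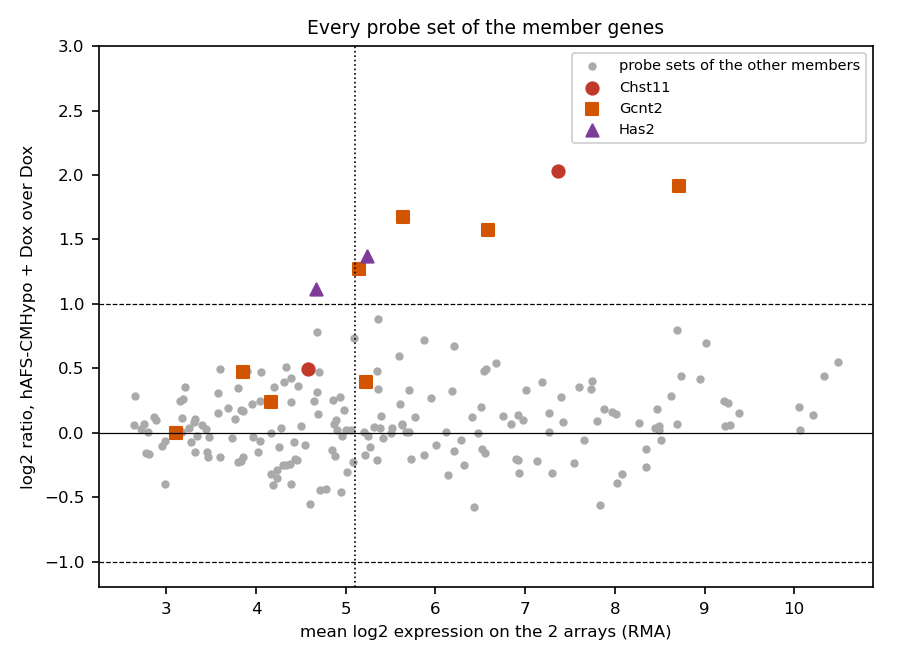
Log2 ratio (hAFS-CMHypo + Dox over Dox) of each of the 199 member probe sets plotted over its mean log2 expression, with 1 array per condition. Dashed lines mark 2-fold and the dotted line the array median, 5.10; the 7 probe sets above the upper dashed line belong to *Chst11* (1), *Gcnt2* (4) and *Has2* (2).

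The promoters of the members with the largest log2 ratios are shown next, as the 250 bases upstream of each start site in RefSeq (GRCm38.p6). *Gcnt2* is shown with its 3 start sites. Its probe sets were not assigned to these starts, and whether their unequal log2 ratios go with a start was not tested. The promoters were searched on both strands for the κB motif of NF-κB, the STAT motif TTCNNNGAA and the AP-1 motif TGANTCA, and capitals mark a match.
Chst11, chr10:82985247-82985496, plus strand: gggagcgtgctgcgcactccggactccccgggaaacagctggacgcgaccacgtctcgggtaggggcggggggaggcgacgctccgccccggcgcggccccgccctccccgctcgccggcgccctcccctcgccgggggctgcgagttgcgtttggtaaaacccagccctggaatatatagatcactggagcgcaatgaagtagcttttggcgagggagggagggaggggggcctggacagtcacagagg
Gcnt2, chr13:40859518-40859767, plus strand: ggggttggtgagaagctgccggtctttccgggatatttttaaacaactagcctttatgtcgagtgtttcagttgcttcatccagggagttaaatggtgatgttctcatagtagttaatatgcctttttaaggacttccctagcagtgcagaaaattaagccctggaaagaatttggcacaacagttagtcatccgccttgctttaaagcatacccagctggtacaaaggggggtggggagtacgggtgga
Gcnt2, chr13:40886508-40886757, plus strand: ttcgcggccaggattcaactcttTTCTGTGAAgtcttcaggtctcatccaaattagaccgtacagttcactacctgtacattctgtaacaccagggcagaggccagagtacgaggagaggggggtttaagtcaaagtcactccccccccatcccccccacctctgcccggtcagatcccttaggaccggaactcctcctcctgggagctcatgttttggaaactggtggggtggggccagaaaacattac
Gcnt2, chr13:40917384-40917633, plus strand: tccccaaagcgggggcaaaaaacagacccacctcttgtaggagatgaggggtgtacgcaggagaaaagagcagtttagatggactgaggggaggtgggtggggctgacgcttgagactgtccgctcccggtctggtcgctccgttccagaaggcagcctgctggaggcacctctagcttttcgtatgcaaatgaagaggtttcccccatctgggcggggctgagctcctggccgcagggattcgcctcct
In the *Chst11* window, which had 70% G and C against a median of 52.4% over all windows, there was no match to these letters. The window at the second start of *Gcnt2* held the STAT motif, from base -227 to base -219 counted from the start, and the other windows of *Gcnt2* held none of these motifs. Promoters were found for 76 of the members, in 99 windows, and *Has2* was not among them. The κB motif was in 6 of these 99 windows and in 7.25% of the 32851 windows of all genes. The STAT motif was in 3 windows, of *B3galt5*, *B4galt1* and *Gcnt2*, and in 7.02% of all. The AP-1 motif was in 5 windows and in 6.75% of all. No match overlapped another in the windows printed. A match is a run of letters and was not tested as a site.

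Markers of cell types that such a culture can hold also had unequal log2 ratios. Of all genes, 19.3% were higher and 17.2% lower by over the probe-set SD. The summed linear levels given here follow the brightest markers and do not measure the number of cells, because probe sets bind unequally. Of 10 macrophage markers, 6 were higher and none was lower by over the probe-set SD (median 0.33). The largest were *Cd14* (0.80), *Fcgr3* (0.68) and *Ptprc* (0.48, but -0.09 at its other, low probe set). *C1qa* (-0.17) and *Lyz2* (-0.11) lay below 0. *Lyz2* was the brightest of the 10, with 11.80 against 11.91, and weighs most in their summed levels, 5551 for hAFS-CMHypo + Dox and 5463 for Dox. Of 8 markers of smooth muscle and pericytes, 3 were higher and none lower (median 0.18, summed levels 37921 and 35986). These were *Cspg4* at 0.63 (0.35 at its other probe set), *Cnn1* at 0.32 and *Pdgfrb* at 0.31. The other probe set of *Pdgfrb* had -0.03 (6.53 against 6.56). Of 10 fibroblast markers, 3 were higher and 4 lower (median -0.08, summed levels 16833 and 16962). Among them were *Lum* at 1.10, *Tcf21* at -1.03 (0.18 at its other, low probe set) and *Pdgfra* at 0.79. The other probe sets of *Pdgfra* had 0.76 and -0.05, the latter from low values. Endothelial markers had 2 higher and 1 lower of 10 (median 0.10, summed levels 2815 and 2684), with *Tek* at -0.22, *Esam* at 0.20 and *Tie1* at 0.19. All 10 cardiomyocyte markers had a log2 ratio below 0 and 3 were lower by over the probe-set SD (median -0.11, summed levels 188603 and 202828), with *Pln* at -0.57, *Myh7* at -0.27 and *Ryr2* at -0.21. The part of these shifts in the log2 ratios of *Chst11*, *Gcnt2*, *Has2* and the other members was not tested.

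By more than the probe-set SD, 31 of the 101 members were higher and 18 were lower, against 19.3% and 17.2% of all genes. The median log2 ratio of the members was 0.06 and that of all genes 0.01. A log2 ratio above 0 was found for 69 members (68.3%) and for 51.2% of all genes. Without the 8 members that had probe sets beyond the probe-set SD on both sides of 0, 28 of 93 were higher and 15 lower. The counts by kind of glycan follow, and for each of them the shares of all genes are those just given. Of the 33 enzymes of glycosaminoglycans, 28 had a log2 ratio above 0, and 15 were higher and 3 lower by over the probe-set SD. Of the 68 other members, 41 had a log2 ratio above 0, and 16 were higher and 15 lower by it.

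**Figure D2:**
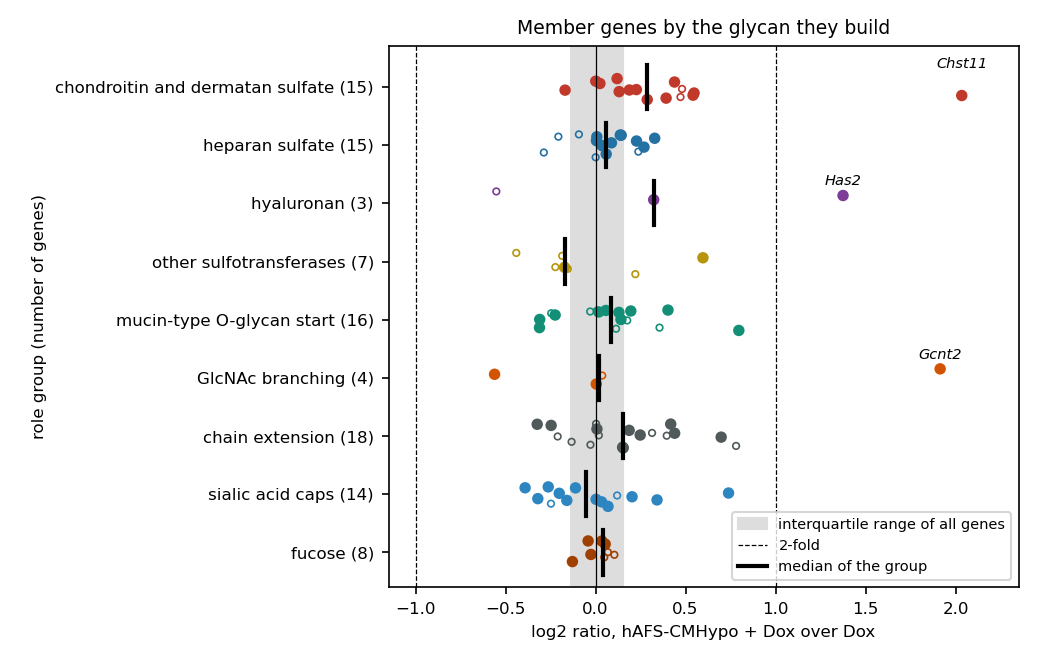
Log2 ratio (hAFS-CMHypo + Dox over Dox, 1 array each) of the member genes, without the pseudogene, grouped by the glycan they build; filled points reach the array median on at least 1 array, open points do not. The black bar is the median of the group, the grey band the interquartile range of all genes (-0.13 to 0.15) and the dashed lines mark 2-fold; the points of chondroitin and dermatan sulfate lie to the right of 0 for 14 of 15 genes and those of fucose lie within -0.13 to 0.10.

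The enzymes of chondroitin and dermatan sulfate had the highest median among the groups with more than 3 genes. Their median log2 ratio was 0.29, with 14 of 15 above 0, and 9 were higher and none was lower by over the probe-set SD. Of all genes, 51.2% lay above 0, 19.3% were higher and 17.2% lower. Among the 9 were *Chst11*, which gave the set its lead, and *Csgalnact1* and *Chsy3*, both under the array median. The 15 genes include *Xylt2*, *B4galt7* and *B3galt6*, whose linker heparan sulfate shares. Without these 3 linker enzymes, 8 of 12 were higher (median 0.36), and with them added to heparan sulfate, 5 of 18 were higher and 2 lower (median 0.07). *Chsy1*, a polymerase that adds the repeating sugars of chondroitin, had log2 values of 10.76 for hAFS-CMHypo + Dox and 10.21 for Dox, which is a log2 ratio of 0.55 from its only probe set. *Chst15*, which adds a further sulfate to a GalNAc that already carries one, had 6.95 against 6.41 (0.54, and 0.24 at its other probe set). *Chst14*, the sulfotransferase of dermatan, had 8.95 against 8.51, a log2 ratio of 0.44. These 3 genes and *Chst11* were all higher with the secretome, *Chst11* by the most. They were named for their size, and *Chst11* gave the set its lead, so nothing further is read from this.

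Of the linker enzymes, *Xylt2*, which puts the first xylose on the core protein, had a log2 ratio of 0.00 (5.50 on each array). *B4galt7* and *B3galt6*, which add the galactoses of the linker, had log2 ratios of 0.12 and 0.39, the latter with 0.28 to 0.48 over its 3 probe sets. *Csgalnact2*, which begins the chondroitin chain on the linker, had 10.08 against 10.05 and a log2 ratio of 0.02. Its relative *Csgalnact1* had 0.47, and the polymerase *Chsy3* had 0.48, but both from values under the array median. *Xylt2* and *Csgalnact2*, which start the linker and the chain, therefore differed by less than the probe-set SD. *Csgalnact1*, which also starts the chain, was higher at both its probe sets (0.47 and 0.35). *Xylt1*, the other xylosyltransferase gene, had no probe set of its own and was not among the members.

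The other chondroitin sulfotransferases did not share the size of *Chst11*. *Chst12* and *Chst13*, which transfer sulfate to the same position as *Chst11*, had log2 ratios of -0.17 (5.79 against 5.96) and 0.13 (5.46 against 5.32), both less than the probe-set SD. *Chst3* and *Chst7*, which sulfate the other common position of GalNAc, had 0.23 and 0.29. *Ust*, which sulfates the uronic acid of the chain, had 0.19 (7.98 against 7.79) and 0.36 at its other, low probe set. Of the 3 sulfotransferases for this position of chondroitin, 1 was past 2-fold and the other two were not past the probe-set SD.

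**Figure D3:**
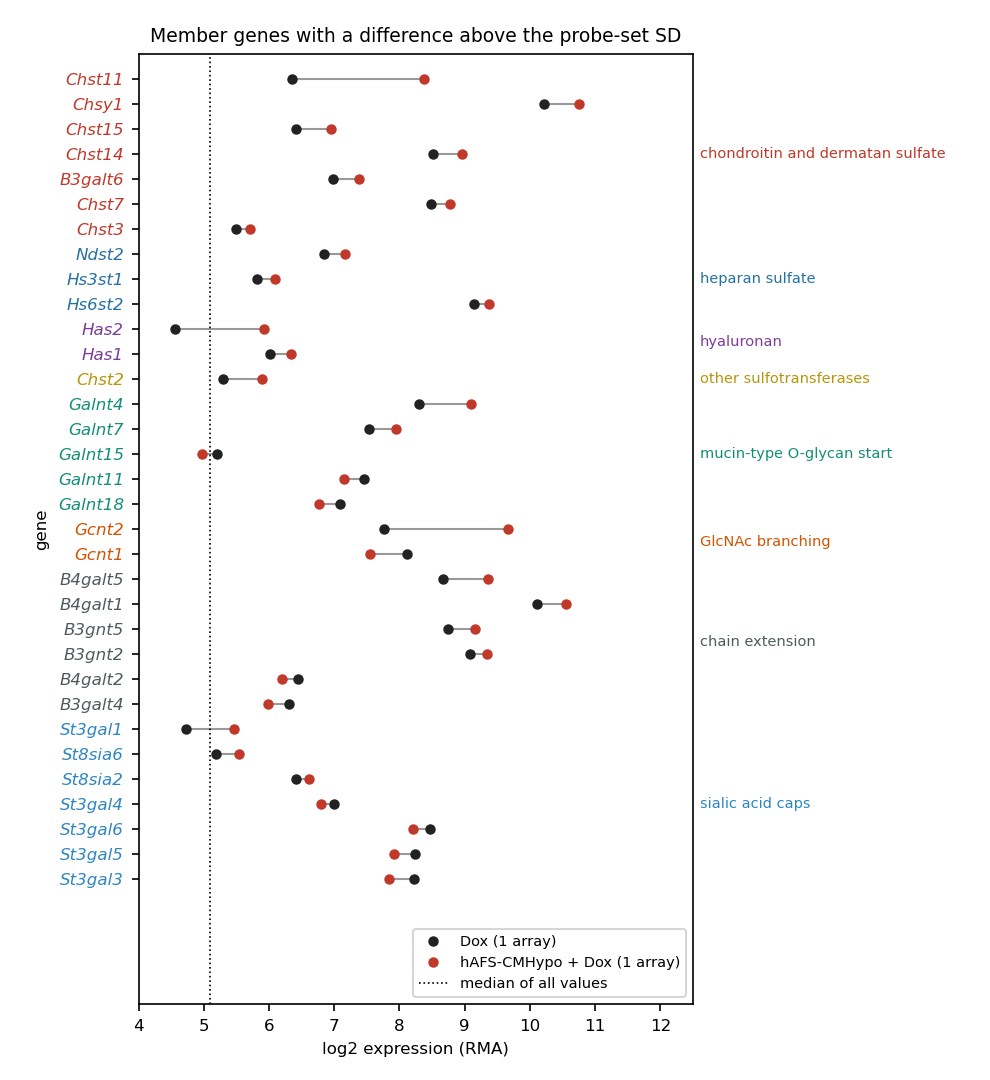
Log2 expression (RMA) in Dox (dark points) and in hAFS-CMHypo + Dox (red points), 1 array per condition, of the 33 member genes with a log2 ratio beyond the probe-set SD (0.20) and a value of at least the array median (dotted line, 5.10) in 1 condition or both. *Has2*, *St3gal1* and *Galnt15* reach it only where they are higher. The red point lies to the right for 23 genes and to the left for 10; levels of different genes are not comparable, because probe sets bind unequally.

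The enzymes of heparan sulfate had small log2 ratios, above 0 for 12 of 15. Of the 15 genes, 4 were higher and 2 were lower by over the probe-set SD (median log2 ratio 0.06), and the log2 ratios ran from -0.29 to 0.33. *Ext1* and *Ext2*, which together polymerize the chain, had 0.06 (9.31 against 9.25) and 0.04 (8.46 against 8.43). *Ndst2*, which replaces acetyl groups by sulfate and so opens the chain to further sulfation, had the largest value, 0.33 (7.17 against 6.84). *Hs2st1*, which sulfates the uronic acid, had 10.27 against 10.14 and a log2 ratio of 0.14.

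*Hs3st1*, whose product binds antithrombin, had 0.27 (6.09 against 5.82). *Hs6st2* had 0.23 at the probe set used, with -0.15 to 0.50 over 4 probe sets, and *Hs6st1* had 0.14. *Hs3st3b1* had 0.01, with 6.12 on each array. Lower by over the probe-set SD were *Ndst3* (-0.29) and *Ndst4* (-0.21), both under the array median. *Ndst1* had no probe set of its own and was not among the members. At the probe sets used, no enzyme of heparan sulfate reached the log2 ratios of *Chsy1*, *Chst15* or *Chst14*, which were named for their size.

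The hyaluronan synthases did not share a direction. *Has1* had log2 values of 6.34 for hAFS-CMHypo + Dox and 6.02 for Dox, which is a log2 ratio of 0.32, beside the 1.38 of *Has2*. *Has3* had 4.33 against 4.88, a log2 ratio of -0.55 from low values. The median of the 3 was 0.32.

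The sulfotransferases that act on chains other than chondroitin and heparan had mostly low signal, 5 of 7 under the array median. *Chst2*, which sulfates GlcNAc in keratan sulfate and in selectin ligands, had 5.90 against 5.30, a log2 ratio of 0.60, with 0.36 and 0.02 at its other probe sets. *Chst1*, which sulfates the galactose of keratan sulfate, had 5.12 against 5.30, a log2 ratio of -0.17. Of the 7 genes, 2 were higher and 2 lower by over the probe-set SD (median -0.17, but 0.21 over the 2 genes that reached the array median).

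The enzymes that start mucin-type O-glycans, the GalNAc transferases, differed among themselves. Of 16, 3 were higher and 4 were lower by over the probe-set SD (median 0.09). *Galnt4* had 9.09 against 8.29, a log2 ratio of 0.80. Its other probe sets had 0.67 (6.55 against 5.87) and, from low values, -0.40. *Galnt7*, which acts on peptides that already carry GalNAc, had 0.40 (-0.09 at the lowest of its 3 probe sets). *Galnt11* and *Galnt18* both had -0.31, the former with 0.06 at its other probe set, from low values. *Galnt2*, a widely expressed member of the family, had 0.02 (8.50 against 8.48). *Galnt3* had 0.36 and, at another of its probe sets, -0.32, with values under the median. *Galnt10* had 0.14 at its brightest probe set, and 0.48 and 0.88 at the others, so its log2 ratio depended on the probe set.

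In the branching family *Gcnt1* and *Gcnt2* lay on opposite sides of 0. *Gcnt1*, the core 2 enzyme on whose branch the ligand of P-selectin is built, had 7.55 against 8.11, a log2 ratio of -0.56, and -0.21 at its other probe set. It had the lowest log2 ratio of the 101 members. *Gcnt7* had 0.00 (5.67 on each array). *Gcnt3* was under the 25th percentile on both arrays, with log2 ratios from -0.39 to 0.25 over 3 probe sets.

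Of the 18 enzymes that extend chains with galactose or GlcNAc, 7 were higher and 3 were lower by over the probe-set SD (median 0.15). *B4galt5*, which makes lactosylceramide, the base of most glycolipids, had 9.36 against 8.66, a log2 ratio of 0.70, and 0.72 at its other probe set. *B4galt1*, the main galactosyltransferase of N-glycans, had 10.55 against 10.11, a log2 ratio of 0.44 from its only probe set, which is of a less specific type. *B3gnt5*, which starts the lacto-series of glycolipids, had 0.42 (9.16 against 8.74) and -0.06 at its other probe set, from low values. *B3gnt7* had 0.78 from its only probe set, with values of 5.07 and 4.29 under the median. *B3galt4*, the synthase of ganglioside GM1, had -0.32 (5.98 against 6.30), and *B3gnt9* had 0.01. The 5 probe sets of *B3galt1* lay between -0.41 and 0.50, all with low values.

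The enzymes that cap chains with sialic acid had log2 ratios on both sides of 0. Of 14, 3 were higher and 5 were lower by over the probe-set SD (median -0.05). *St3gal1*, which caps core 1 O-glycans, had 5.46 against 4.72, a log2 ratio of 0.74, and 0.43 at its other probe set. *St3gal3*, which caps N-glycans, had 7.83 against 8.22, a log2 ratio of -0.39, and -0.58 at its other probe set. *St3gal5*, the synthase of ganglioside GM3, had 7.92 against 8.24, a log2 ratio of -0.32, and -0.21 at its other probe set. The probe sets of *St3gal3* and *St3gal5* are all of the less specific types, which can bind transcripts of more than the named gene or form. *St3gal1* and *St3gal3* were thus on opposite sides of 0 at each of their probe sets.

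*St8sia6* had a log2 ratio of 0.34 (-0.19 to 0.51 over 3 probe sets). *St6gal1*, which caps N-glycans in the other common linkage, had 0.00 (7.27 against 7.26). The probe sets of *St3gal2*, *St3gal6*, *St8sia1* and *St8sia2* lay beyond the probe-set SD on both sides of 0, from -0.22 to 0.34, from -0.26 to 0.29, from -0.25 to 0.31 and from -0.44 to 0.20, and the counts above take them at their brightest probe set. Probe sets on both sides were also found for *Galnt3*, *Galnt4*, *Gcnt3* and *B3galt1*, which makes 8 members. Without these, 2 of 10 enzymes of sialic acid caps were higher and 3 lower, 1 of 14 GalNAc transferases was higher and 4 lower, and 7 of 17 enzymes of chain extension were higher and 2 lower. Fucosyltransferases, all 8 of them, were within the probe-set SD at their brightest probe set (median 0.04), while other probe sets of *Fut2* and *Fut8* had -0.25 and -0.20. *Fut8*, which adds the core fucose of N-glycans, had 0.05 (8.52 against 8.47), *Fut7*, which completes selectin ligands in leukocytes, had -0.03 (5.23 against 5.26), and *Fut11*, *Fut10* and *Fut2* had -0.13, -0.04 and 0.04. The pseudogene *Fut4-ps1* had -0.13, and its value is uncertain, since a pseudogene can share sequence with its parent gene.

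Genes that feed, carry, remove or read these glycans were described from lists made beside the members. For each list, the shares of all genes are 19.3% higher and 17.2% lower by over the probe-set SD. None of 23 genes of sulfate donors and sugar nucleotides was 2-fold higher or lower, and 7 were higher and 1 lower by over the probe-set SD (median log2 ratio 0.07). *Papss2*, which makes the sulfate donor of all these sulfotransferases, had 7.83 against 7.21, a log2 ratio of 0.63, with 0.12 to 0.92 over 4 probe sets. *Papss1*, the other synthase of this donor, had 8.26 against 8.47, a log2 ratio of -0.20, and was the gene of the list that was lower. *Gfpt2* and *Gfpt1*, which open the route to UDP-GlcNAc, had 0.70 and 0.46 (-0.09 at the lowest of the 6 probe sets of *Gfpt1*, from low values). Of 13 other enzymes listed with glycosaminoglycan synthesis, 3 were higher and 3 lower by over the probe-set SD (median 0.04). *Pxylp1*, a phosphatase that acts on the xylose of the linker, had 7.44 against 8.28, a log2 ratio of -0.84. Its other 2 probe sets had -0.66 (6.16 against 6.81) and, from low values, 0.27 (3.79 against 3.53). *Dse*, an epimerase that turns chondroitin into dermatan, had -0.30. *B3gat1*, a glucuronyltransferase of the HNK-1 epitope, had 0.30 (-0.21 at the lowest of 4 probe sets, from low values). It is among the 3 higher, though its product is no glycosaminoglycan. Its relative *B3gat2*, among the 3 lower, had -0.30 from values under the 25th percentile.

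Core proteins of chondroitin and dermatan sulfate had a median log2 ratio of 0.21, with 7 of 14 higher and 2 lower by over the probe-set SD. Those of heparan sulfate had 0.16, with 5 of 13 higher and 3 lower. Of all genes, 19.3% were higher and 17.2% lower. *Ncan* and *Epyc*, among the 7, and *Gpc2*, among the 3, lay under the array median. *Cspg4* and *Dcn*, also among the 7, were counted above as markers of pericytes and of fibroblasts as well. *Cd44*, a hyaluronan receptor that can itself carry chondroitin sulfate, had 11.64 against 10.76, a log2 ratio of 0.88. Its other probe sets had 0.91, 0.69 and, from low values (2.90 against 2.91), -0.01. *Cspg4* had 0.63 (0.35 at its other probe set). *Vcan*, which codes for the large hyaluronan-binding proteoglycan versican, had 0.55 (-0.15 at the lowest of 8, from low values). *Sdc3*, *Col18a1* and *Sdc1* had 0.59, 0.47 and 0.37. *Sdc3* had -0.29 at the lowest of its 3 probe sets. Of 17 genes of breakdown and sulfate removal, 5 were higher and 2 lower (median 0.02). *Cemip*, which takes part in hyaluronan degradation, had -0.57 (0.10 at the highest of 3). The lysosomal sulfatase gene *Ids* had -0.39 (0.07 at the highest of 6, from low values). The heparan sulfatase gene *Sulf1* had 0.29 (-0.03 at the lowest of 3, from low values). Of 15 other enzymes of O-glycans and sialylation, 4 were higher and none lower (median 0.13), led by *St6galnac4* at 0.36 (-0.10 at its other probe set), *B4galnt1* at 0.26 and *B3galnt2* at 0.24.

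Of 9 selectins and carriers of their ligands, *Selp* had a log2 ratio of 4.18 (10.59 against 6.41), and 2.14 and 1.64 at its other probe sets. *Sele* had 1.26 from values under the array median, 4.85 against 3.59. Its Dox value, 3.59, also lay under the 25th percentile. By over the probe-set SD, 3 of the 9 were higher and 1 was lower (median 0.10). Of the carriers, *Podxl* had 0.47 (-0.03 at its other probe set), and *Glg1* and *Cd34* had 0.15 and -0.02. *Selplg*, the ligand of P-selectin, had -0.13 and *Glycam1* had -0.29 from values under the array median. Several members take part in making these ligands. *Chst2* (0.60) and *B4galt1* (0.44) were higher by over the probe-set SD. *Gcnt1* (-0.56), *St3gal6* (-0.26, but 0.29 at a low probe set) and *St3gal4* (-0.20, barely past it) were lower by over it. The only probe set of *St3gal4* and the brightest of *St3gal6* are, like that of *B4galt1*, of the less specific types. With such probe sets left out, *St3gal6* had -0.14, within the probe-set SD. *Fut7* (-0.03) was within it, as were *Chst4* (-0.19) and *Fut4* (0.05), both under the array median.

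**Figure D4:**
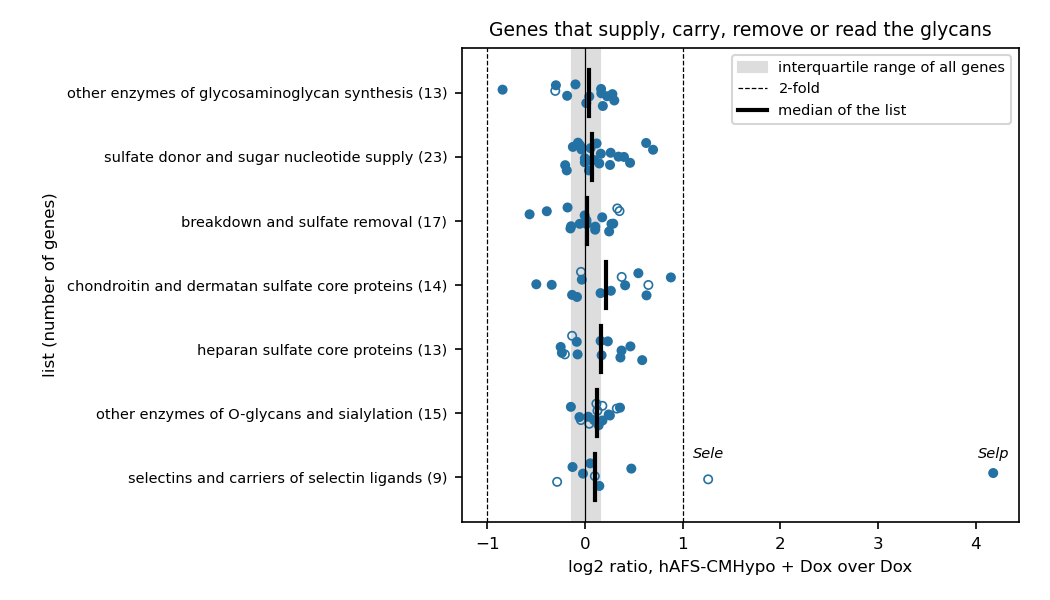
Log2 ratio (hAFS-CMHypo + Dox over Dox, 1 array each) of genes that supply sugars and sulfate, carry, remove or read the glycans; filled points reach the array median on at least 1 array. The black bar is the median of the list, the grey band the interquartile range of all genes and the dashed lines mark 2-fold; only *Selp* (4.18) and *Sele* (1.26) lie beyond 2-fold, and the medians run from 0.02 to 0.21.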

How the data were processed

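mNVCM were profiled on Affymetrix mouse arrays, 1 per condition. The deposited log2 values, 1 for each of 45101 probe sets, were made by the authors with RMA and quantile normalization and were used as they stand. The log2 scale was read from their range, 2.37 to 15.05. The software version was not given in the sources used here. Groups came from the labels. Symbols came from GEO's platform annotation, updated by Entrez ID through RefSeq genes (GRCm38.p6), which matched 34741 of 34945 probe sets with 1 gene. Probe sets with several genes were left out, among them 3 that name a member.

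Each gene took its probe set with the highest mean. Genes past 2-fold, the threshold of the study's methods, and genes past the pooled SD among probe sets were counted. The counting was run on simulated data with planted changes well past 2-fold, which checks the code and not the counts given here. Members, lists and roles were chosen with earlier results of these data known. Named were members past 2-fold at any probe set, the 4 largest and the smallest absolute log2 ratio of each group at or above the array median, members with probe sets beyond the SD on both sides of 0, and from each list the 3 largest at that level and any past 2-fold. Further members of the glycosaminoglycan groups, *Galnt10*, *Galnt15*, *B3gnt7*, *Papss1*, *Selplg*, *Cd34*, *Glycam1*, *Myh6*, *Tnnt2* and genes with a motif were named after their values were seen. So were *St3gal4*, *Chst4*, *Fut4*, *Lyz2*, *C1qa*, *B3gat2*, *Ncan*, *Epyc*, *Gpc2* and *Dcn*. Alternatives were folds of 1.5 and 3, filters on low signal, centring, lowess correction (span 0.3), less specific probe sets left out, other choices of probe set and other readings of the symbol rule. The software was Python 3.11.15 with matplotlib 3.10.9, statsmodels 0.14.6, pandas 2.3.3 and numpy 2.4.6.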

Additional observations from a re-analysis of the deposited data

How the results depend on the processing

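At 1.5-fold, 2.32% of all genes were higher and 1.52% were lower. The count of 3 members higher by 2-fold or more became 8 at that fold, and no member was lower at it. Under the other alternatives run it was 2 or 3, and 2 with the mean of all probe sets, where *Gcnt2* had a log2 ratio of 0.94 and *Chst11* of 1.27. The median of the hyaluronan synthases was 0.85 and that of the other sulfotransferases 0.21 when genes under the array median were left out, which leaves 2 genes in each and turns the sign of the latter (-0.17 over all 7). The median of the branching enzymes was -0.19 with the probe set of largest change. The median of the members lay between 0.03 and 0.12 under all alternatives. Centring and lowess correction moved none of 45 named members by over the probe-set SD, and leaving out less specific probe sets moved none of the 40 that could be recomputed. *B4galt1*, *Hs3st1*, *St3gal3*, *St3gal5* and *Xylt2* have only such probe sets. The mean of all probe sets moved 10 of 45 named members by more than it, and the probe set of largest change moved 12 of 45. The SD itself, recomputed over all 9010 genes with 2 or more probe sets at any level of signal, was 0.22. This alternative was chosen after seeing the data. The counts without the linker enzymes or without members with probe sets on both sides of 0 were also chosen after seeing the data, and moved no group's median by over that SD. No paired analysis was possible because there is 1 array per condition, and for the same reason no array could be left out. Low signal limits 33 of the members, which lay under the array median on both arrays.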

Other observations

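A wider reading of the symbol rule adds genes that the report does not count. With the synonyms of the RefSeq table, 4 genes join the members. *B4gat1*, formerly named as a B3gnt gene and known to act on the glycans of dystroglycan, had log2 values of 8.90 for hAFS-CMHypo + Dox and 9.15 for Dox, which is a log2 ratio of -0.25. *B3galnt1*, the globoside synthase, had 5.10 against 5.26, a log2 ratio of -0.16. *Sec1* had -0.26 and *Galntl5* had 0.13, both from values under the array median. Where a digit is required after Fut alone, 9 genes join, with log2 ratios from -0.12 to 0.36 and none past 2-fold.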
